A study of Mus musculus with 9 samples.

Results

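Glycine receptors are chloride channels that open when glycine binds, and they carry fast inhibition in the spinal cord, the brainstem and the retina. Alpha subunits bind the transmitter, and the beta subunit binds gephyrin, the scaffold that holds receptors at inhibitory synapses. In the retina, glycinergic amacrine cells signal through these receptors to bipolar, ganglion and other amacrine cells. The genes described are the alpha subunit genes Glra1, Glra2, Glra3 and Glra4, the beta subunit gene Glrb and the gephyrin gene Gphn. They are 6 of the 35397 genes in the deposited expression table, found by matching its identifiers to these symbols. The family was chosen by the FPKM difference of Glra3 between db/db and wild-type libraries, seen in an earlier reading of these data. The values of db/db against wild type for these 6 genes are therefore given as a description and not as a test.

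RNA of whole retina came from 4 db/db libraries (db/db 1, 3, 4 and 5) and 5 wild-type libraries (wild type 1 to 5). Mice of the db/db strain lack a working leptin receptor and become obese and diabetic. The labels give no strain, age, sex, litter or batch, and it is not stated that the libraries are separate animals; the tests therefore weigh a difference against the variation among libraries, which may be technical. Levels are FPKM, that is, reads scaled by exon length and library depth, so that levels of different genes can be set side by side. Such an order and the shares drawn from it rest on the annotated exon length. This was 9208 bases for Glra3, 3150 for Glra2 and 2414 for Glra1. In wild type 1, for example, Glra3 had 1237 reads and Glra2 776, though Glra2 was higher in FPKM.

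The depth recovered from the steps of the FPKM values was 36603058 to 46121284 reads in db/db and 43008491 to 47853815 reads in wild type. The rod transducin gene Gnat1, a defining marker of the labelled tissue, stood at 3937 to 4852 FPKM in db/db and 4196 to 4626 FPKM in wild type. Xist was near 0 in every library (0.0814 to 0.0948 FPKM in db/db and 0.0733 to 0.130 FPKM in wild type). The Y-linked Eif2s3y was at 14.7 to 22.8 FPKM in db/db and 18.4 to 21.8 FPKM in wild type. Every library thus had the pattern of male tissue. Glra2 and Glra4 are X-linked. The library db/db 1 stood apart. Its 7 skeletal muscle marker genes summed to 228 FPKM, against 6.31 to 23.7 FPKM in the other db/db libraries and 4.26 to 5.96 FPKM in wild type. Its 10 pigment cell marker genes summed to 437 FPKM, against 93.7 to 214 FPKM in the other db/db libraries and 128 to 203 FPKM in wild type. The lens and cornea markers were high in other libraries: their 10 genes summed to 124, 35.9, 155 and 259 FPKM in db/db 1, 3, 4 and 5, against 3.39 to 124 FPKM in wild type. The keratin gene Krt5 reached 121 FPKM in a db/db library other than db/db 1, against at most 4.004 FPKM in wild type. The part of these markers in the results was not tested. The fitted changes of the 6 genes and the counts over gene lists are given with and without db/db 1.

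The 250 bases before the RefSeq start site are shown for the alpha genes Glra3 and Glra2, which had the lowest db/db to wild-type ratios of the alpha genes. They are RefSeq sequences of GRCm38.p6 (mm10), from chr8:55940168-55940417 on the plus strand for Glra3 and from chrX:165327394-165327643 on the minus strand for Glra2. Capitals mark matches on either strand to the GC box (GGGCGG), the CCAAT box (CCAAT), the TATA box (TATAAA) and the site of the photoreceptor factors CRX and OTX2 (TAATCC).
Glra3: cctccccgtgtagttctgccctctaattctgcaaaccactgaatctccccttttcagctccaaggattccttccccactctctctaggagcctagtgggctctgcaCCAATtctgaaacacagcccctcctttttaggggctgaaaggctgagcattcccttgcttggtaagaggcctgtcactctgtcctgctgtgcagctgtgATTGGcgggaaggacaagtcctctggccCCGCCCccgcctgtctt
Glra2: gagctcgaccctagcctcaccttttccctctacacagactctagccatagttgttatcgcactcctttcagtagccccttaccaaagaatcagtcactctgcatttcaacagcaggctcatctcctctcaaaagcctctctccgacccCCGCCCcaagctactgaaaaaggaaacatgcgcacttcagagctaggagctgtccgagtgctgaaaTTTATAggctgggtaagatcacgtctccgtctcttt
The Glra3 window holds 1 GC box and a pair of CCAAT boxes, and the Glra2 window holds 1 GC box and 1 TATA box read on the opposite strand. The table held windows for 5 of the 6 genes, and Glra1 had no entry. A GC box was found in 4 of the 5 windows (Glra2, Glra3, Glrb and Gphn) and in 32.7% of all 32851 windows in the table. A CCAAT box was found in 2 of the 5 (Glra3 and Glra4) and in 33.8% of all, and a TATA box in 1 of the 5 (Glra2) and in 12.4% of all. The letters of the CRX and OTX2 site were in none of the 5 windows and in 6.25% of all. GC content of the windows was 56.0% for Glra3, 50.4% for Glra2 and 51.2% for Glra4, near the median of 52.4% over all windows, while that of Glrb was 62.4% and that of Gphn 77.2%. These matches describe letters and do not show binding.

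The scaffold and the beta subunit gene stood above each alpha subunit gene in every library. In db/db, Gphn averaged 19.4 ± 1.04 FPKM, Glrb 10.6 ± 1.56 FPKM, Glra2 4.01 ± 0.544 FPKM, Glra1 2.16 ± 1.26 FPKM, Glra3 1.80 ± 0.303 FPKM and Glra4 1.19 ± 0.457 FPKM (SD, n = 4). In wild type, Gphn averaged 20.6 ± 0.547 FPKM, Glrb 12.4 ± 0.679 FPKM, Glra2 5.02 ± 0.299 FPKM, Glra3 2.97 ± 0.289 FPKM, Glra1 2.58 ± 0.369 FPKM and Glra4 1.46 ± 0.175 FPKM (SD, n = 5). Glra1 and Glra3 thus stood in the opposite order of means in db/db and in wild type, but their ranges overlapped in both groups. Glra1 was above Glra3 in 2 of 4 db/db libraries, and Glra3 above Glra1 in 3 of 5 wild-type libraries. The ranges of Glra2 and Glra1 and of Glra3 and Glra4 also overlapped in db/db, although Glra3 was above Glra4 in each of the 4 libraries. All other neighbours in the order were apart in both groups. Spread between libraries was wider in db/db for all 6 genes, with a coefficient of variation of 5.35% (Gphn) to 58.4% (Glra1), against 2.66% (Gphn) to 14.3% (Glra1) in wild type. The coefficient of variation in db/db without db/db 1 was 32.2% for Glra1 and 23.9% for Glra4, against 58.4% and 38.4% with it, and still wider than in wild type for all 6 genes.

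Glra3 encodes an alpha subunit found at inhibitory synapses of the mouse inner retina and of the spinal dorsal horn. It lies on chromosome 8 (ENSMUSG00000038257, 55940460 to 56130070, plus strand, mm10). It had 1.53, 2.12, 1.997 and 1.55 FPKM in db/db 1, 3, 4 and 5, against 2.81, 2.95, 3.01, 2.66 and 3.43 FPKM in wild type 1 to 5. Every db/db library was below every wild-type library, which held for 6.38% of the 14588 genes tested, while 5.20% were apart with db/db higher. No other of the 6 genes was apart in either direction. These values rest on 521 to 1440 reads per library. The means were 1.80 ± 0.303 FPKM in db/db (SD, n = 4) and 2.97 ± 0.289 FPKM in wild type (SD, n = 5), a ratio of 0.605. The fitted log2 change on the log2(FPKM + 1) scale, which understates changes of low genes, was -0.51 (SE 0.090), lower than that of all but 1.11% of tested genes. Glra3 was called lower in the limma fit across all genes, as 0.267% of tested genes were, and it was the 1 gene of the 6 called; 0 were called higher, as 0.233% of tested genes were. The call was lost when any of the 8 libraries other than db/db 1 was left out. With the contrast known in advance, nothing is read from that count.

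The Glra3 value moved little with db/db 1 left out and more with GC content. Without db/db 1 its log2 change was -0.46 (SE 0.086), the ratio of means was 0.635, and it was called lower, as 5.84% of tested genes were (4.72% were called higher). Its groups were then apart, as for 11.5% of tested genes with db/db lower. Its longest transcript has a GC content of 35.2%, below all but 0.398% of tested genes, and its annotated exons span 9208 bases, longer than 88.5% of tested genes. The 725 tested genes in its GC bin (29.6% to 39.7% GC) had a median log2 change of -0.18 in db/db. Across tested genes, the difference of a library from the wild-type mean correlated with GC content at r = 0.184, 0.196, 0.287 and 0.498 in db/db 1, 3, 4 and 5, and at -0.121 to 0.128 in the wild-type libraries. After median correction within 20 GC bins the Glra3 log2 change was -0.33 (SE 0.082) and was not called, when 0.00685% of genes were called lower and 0.0343% higher. GC-corrected and without db/db 1 it was -0.27 (SE 0.064) and called, as 2.34% of genes were (2.56% were called higher). Of the genes in its own bin, 4.0% had a lower log2 change than Glra3 with 9 libraries and 6.48% without db/db 1. Most genes of the bin have a higher GC content than Glra3. The median of the bin does not remove a GC trend within it, so the corrected values may still hold part of one.

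**Figure D1:**
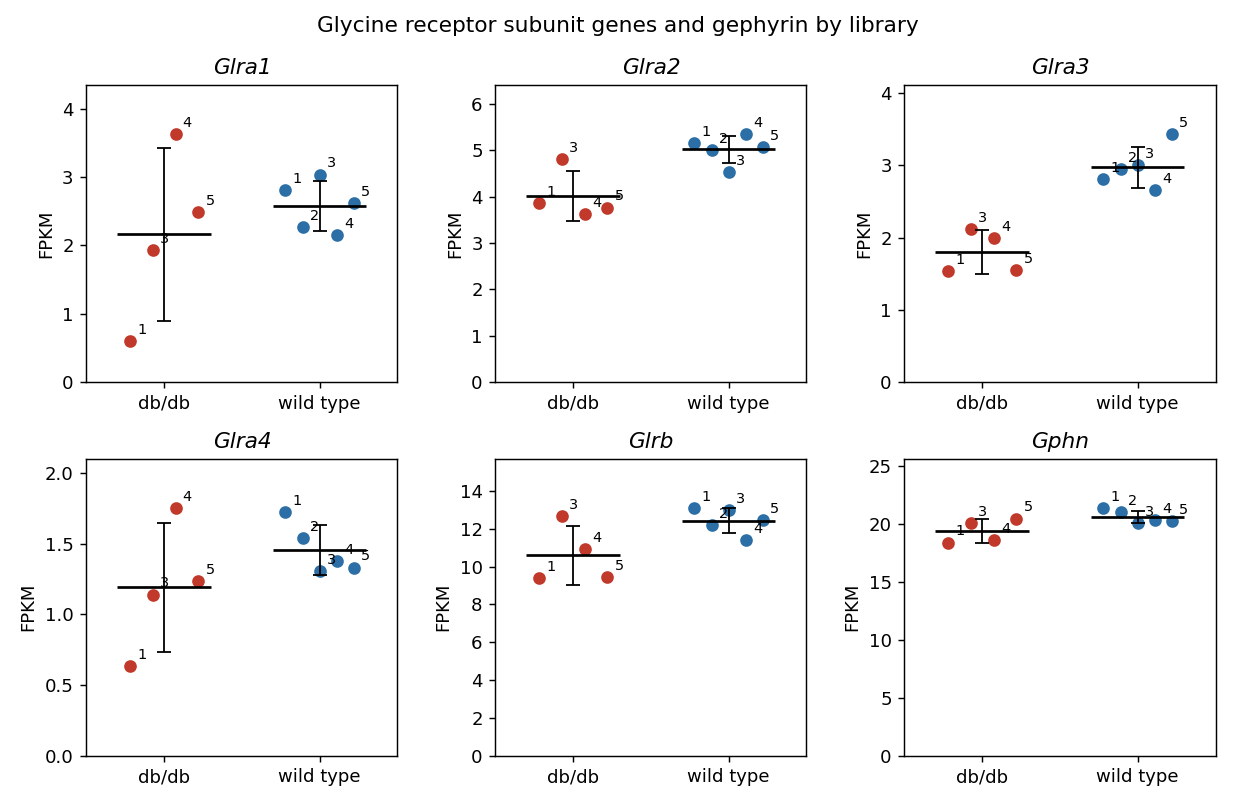
FPKM of the 6 genes in each library, with db/db on the left and wild type on the right of each panel; points are libraries with their label numbers, bars the mean and whiskers the SD (n = 4 and n = 5). Glra3 is the gene whose groups do not overlap (at most 2.12 FPKM in db/db and at least 2.66 FPKM in wild type), and db/db 1 is lowest in 5 panels.

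Glra2 encodes an alpha subunit that is also prominent in the developing nervous system (ENSMUSG00000018589, chromosome X, 165129017 to 165327393, minus strand). It had 3.85, 4.82, 3.62 and 3.76 FPKM in db/db 1, 3, 4 and 5, against 5.15, 4.997, 4.54, 5.34 and 5.07 FPKM in wild type 1 to 5. All db/db libraries but db/db 3 lay below the wild-type range, and db/db 3 was above wild type 3 alone. The means were 4.01 ± 0.544 FPKM in db/db (SD, n = 4) and 5.02 ± 0.299 FPKM in wild type (SD, n = 5). The log2 change was -0.27 (SE 0.080), with a 95% interval of -0.45 to -0.090, and -0.26 (SE 0.081) without db/db 1. GC-corrected and without db/db 1 it was -0.11 (SE 0.066). Its transcript has 41.3% GC, and its 724-gene bin had a median log2 change of -0.13 with 9 libraries.

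Glra1 encodes the alpha subunit of the adult spinal cord, mutated in the spasmodic and oscillator mice (ENSMUSG00000000263, chromosome 11, 55514238 to 55608198, minus strand). It had 0.593, 1.93, 3.62 and 2.49 FPKM in db/db 1, 3, 4 and 5, against 2.81, 2.26, 3.03, 2.15 and 2.62 FPKM in wild type 1 to 5. The db/db libraries held both the lowest value (db/db 1) and the highest (db/db 4), so the groups overlapped. Glra1 in db/db 1 rests on 66 reads, against 207 to 360 reads in the other db/db libraries and 231 to 334 in wild type. Its log2 change was -0.27 (SE 0.26), with a 95% interval of -0.85 to 0.30. Without db/db 1 the sign turned, with a log2 change of 0.022 (SE 0.14) and a ratio of means of 1.04. The antisense gene Gm12236 shares 141 exonic bases with Glra1 but was at a mean of 0.160 FPKM.

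Glra4, on chromosome X (ENSMUSG00000018595, 136757674 to 136780141, minus strand), encodes the alpha subunit with the fewest transcripts here. It had 0.636, 1.14, 1.75 and 1.24 FPKM in db/db 1, 3, 4 and 5, against 1.73, 1.54, 1.31, 1.38 and 1.33 FPKM in wild type 1 to 5. The groups overlapped, with db/db 1 lowest and db/db 4 highest, as for Glra1. Counts were low, at 59 to 145 reads in db/db libraries and 120 to 166 in wild type. Its log2 change was -0.19 (SE 0.14) with 9 libraries and -0.054 (SE 0.099) without db/db 1. The noncoding gene BC065397 (mean 1.45 FPKM) overlaps Glra4 on the opposite strand, but the annotation gives them no shared exonic base.

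Glrb, the gene of the gephyrin-binding beta subunit (ENSMUSG00000028020, chromosome 3, 80843599 to 80913660, minus strand), had 9.37, 12.7, 10.9 and 9.44 FPKM in db/db 1, 3, 4 and 5. Wild type 1 to 5 had 13.1, 12.2, 13.0, 11.4 and 12.5 FPKM. Values of db/db 1, 4 and 5 were below the wild-type range, while db/db 3 was within it. The means were 10.6 ± 1.56 FPKM in db/db (SD, n = 4) and 12.4 ± 0.679 FPKM in wild type (SD, n = 5). The log2 change was -0.22 (SE 0.090), -0.17 (SE 0.083) without db/db 1, and -0.024 (SE 0.057) GC-corrected and without db/db 1. Glrb transcripts have 40.8% GC and share the GC bin of Glra2.

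Gphn encodes gephyrin, which also catalyses the last steps of molybdenum cofactor synthesis (ENSMUSG00000047454, chromosome 12, 78226379 to 78684772, plus strand). It had 18.4, 20.1, 18.6 and 20.4 FPKM in db/db 1, 3, 4 and 5, against 21.3, 20.96, 20.1, 20.3 and 20.2 FPKM in wild type 1 to 5. Its groups overlapped, and it varied least of the 6 genes. The log2 change was -0.084 (SE 0.055), with a 95% interval of -0.21 to 0.040, and -0.060 (SE 0.044) without db/db 1. The noncoding gene Gm48226 (mean 1.81 FPKM) is annotated as a bidirectional promoter transcript on the opposite strand and shares 147 exonic bases with Gphn, and the strand of counting is not given.

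The log2 changes of all 6 genes were below 0 with 9 libraries, with a median of -0.24, against a median of 0.0035 over all tested genes, of which 49.3% were below 0. Without db/db 1 they were below 0 for 5 of 6, with a median of -0.11 against -0.017 over all tested genes. GC-corrected and without db/db 1 the median was -0.040. These counts and medians include Glra3, the gene by which the family was chosen, and are given as a description. With 9 libraries the genes in the GC bin of Glra3 had a median log2 change of -0.18. Those in the bin shared by Glra2 and Glrb had a median of -0.13. The library db/db 1 was the lowest of all 9 for 5 of the 6 genes, Glra2 being lowest in db/db 4, and it was lowest for 30.1% of all tested genes. The part of the muscle and pigment cell markers of db/db 1 in these values was not tested. In whole retina, fewer cells of a type and less RNA per cell cannot be told apart.

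**Figure D2:**
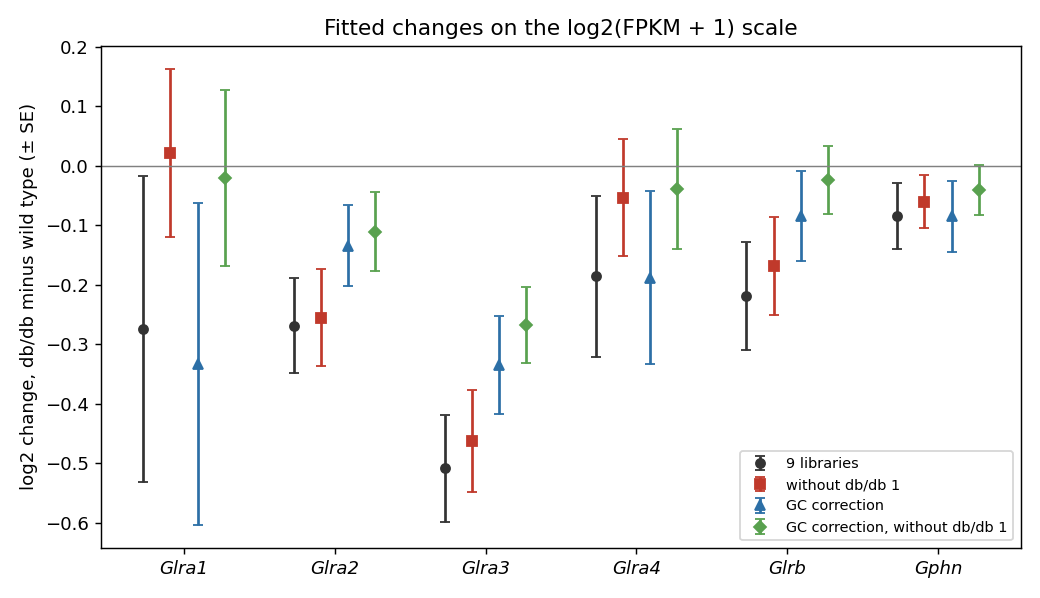
Fitted log2 change of each gene (db/db minus wild type, log2(FPKM + 1) scale) with its SE, with 9 libraries, without db/db 1, with GC correction, and with both. Glra3 lies lowest of the 6 in each setting, level with Glra1 after GC correction with 9 libraries (-0.33 for both); Glra1 is above 0 (0.022) without db/db 1.

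The summed alpha subunit FPKM, which includes Glra3, is given as a description. It was 6.62, 10.0, 11.0 and 9.04 FPKM in db/db 1, 3, 4 and 5, against 12.5, 11.8, 11.9, 11.5 and 12.4 FPKM in wild type 1 to 5. All db/db libraries lay below all wild-type libraries, but that separation rested on Glra3, the gene by which the family was chosen. With Glra3 taken out, the sum was 5.08, 7.88, 8.99 and 7.49 FPKM in db/db 1, 3, 4 and 5, against 8.80 to 9.69 FPKM in wild type, and db/db 4 lay among the wild-type values. Glra3 made up 23.2%, 21.2%, 18.2% and 17.1% of that sum in db/db 1, 3, 4 and 5, against 22.5%, 25.1%, 25.3%, 23.1% and 27.6% in wild type 1 to 5. Its mean share was 19.9 ± 2.78% in db/db (SD, n = 4) and 24.7 ± 2.02% in wild type (SD, n = 5). The share of Glra3 in db/db 1, where Glra1 held 8.96% and Glra4 9.62%, lay among the wild-type values, and the other db/db libraries lay below them (18.8 ± 2.11%, SD, n = 3).

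Glra2 held 32.9% to 58.3% of the alpha sum in db/db and 38.2% to 46.3% in wild type. In db/db 4 Glra1 (33.0%) and Glra2 (32.9%) had nearly equal shares, a composition outside that of the wild-type libraries, where Glra1 held 18.7% to 25.5%. The 4 db/db libraries thus differed more from each other in alpha subunit makeup than the 5 wild-type libraries did. The ratio of Glrb to the alpha sum was 1.18 ± 0.197 in db/db (SD, n = 4) and 1.03 ± 0.0411 in wild type (SD, n = 5). The db/db 1 and 3 libraries had 1.42 and 1.27, above each wild-type library (0.989 to 1.09), while db/db 4 and 5 had 0.993 and 1.04. The db/db mean without db/db 1 was 1.10 ± 0.146 (SD, n = 3), and the difference from wild type was 0.0684, against 0.147 with it. Gphn over Glrb was 1.85 ± 0.261 in db/db (SD, n = 4) and 1.66 ± 0.0916 in wild type (SD, n = 5), with overlapping groups.

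**Figure D3:**
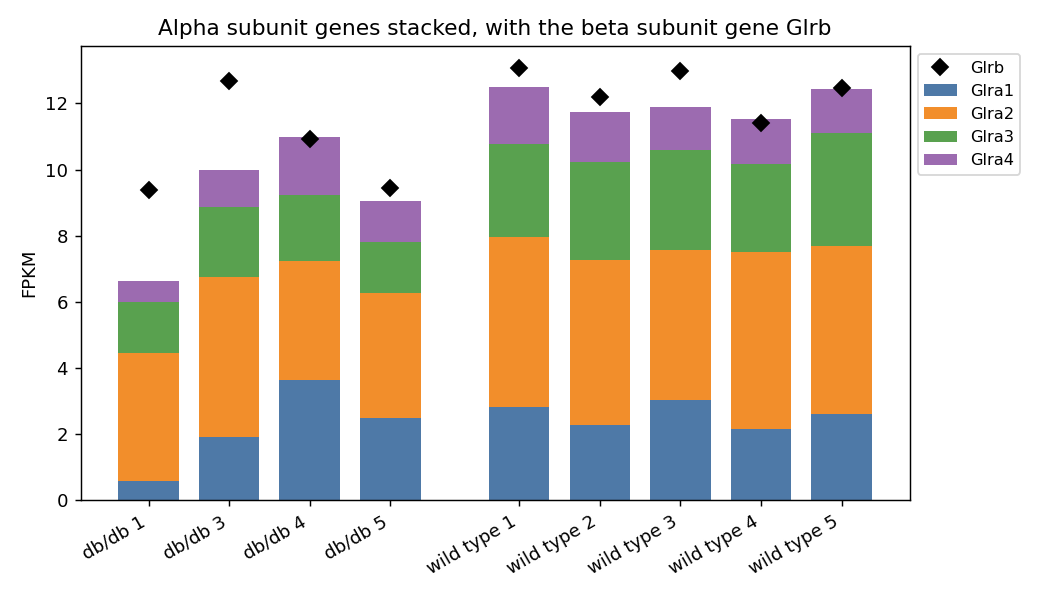
Stacked bars give the FPKM of the 4 alpha subunit genes in each library, and diamonds that of Glrb, with the db/db libraries left of the wild-type libraries. The alpha sum is at most 11.0 FPKM in db/db and at least 11.5 FPKM in wild type, and Glra1 is at 0.593 FPKM in db/db 1.

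Cells that make or receive glycine gave the following marker levels. The 12 glycinergic amacrine markers summed to 509 to 614 FPKM in db/db and 481 to 537 FPKM in wild type, and none of them passed the test in either direction. Car2 (means of 223 FPKM in db/db and 214 FPKM in wild type) and Calb2 (185 and 161 FPKM) made up most of that sum. Without db/db 1 the sum was 509 to 538 FPKM in db/db. The median log2 change of these markers was -0.12, and -0.038 without db/db 1. Slc6a9, the glycine transporter that defines these cells, stood at 16.5 FPKM in db/db 1, against 31.5 to 35.6 FPKM in wild type, and reached 41.2 FPKM in another db/db library. The 10 markers of GABAergic and starburst amacrine cells summed to 114.6 to 136.7 FPKM in db/db and 137.2 to 143.4 FPKM in wild type, without overlap. Without db/db 1 that sum was 127.7 to 136.7 FPKM in db/db. The 11 bipolar cell markers summed to 362 to 375 FPKM in db/db and 374 to 396 FPKM in wild type. The 11 ganglion cell markers summed to 326 to 455 FPKM in db/db, with db/db 1 highest, and 297 to 338 FPKM in wild type. Without db/db 1 the ganglion sum was 326 to 343 FPKM in db/db, and the median log2 change was -0.022, against 0.046 with it. None of these markers passed with 9 libraries. Without db/db 1, Slc6a5 and Nfia of the glycinergic amacrine markers, Tfap2b and Gad2 of the GABAergic and starburst markers and Scgn of the bipolar markers fell (limma adjusted p = 0.0254 to 0.0460). No marker of these lists rose in that fit, in which 5.84% of all tested genes fell and 4.72% rose. Other markers lay on both sides of 0 without passing, with Slc6a9 at 0.18 (limma adjusted p = 0.115) and Chat at 0.16 (limma adjusted p = 0.173). The list medians were then -0.061 for the GABAergic and starburst markers and -0.080 for the bipolar markers. The part of these markers in the values of the receptor genes was not tested.

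None of the tested genes that supply and move glycine passed the test in either direction with 9 libraries. Of 17 genes listed, 16 were tested, with a median log2 change of 0.030, against 0.0035 over all tested genes. Slc6a5, the neuronal glycine transporter, averaged 4.24 ± 0.933 FPKM in db/db (SD, n = 4) and 5.86 ± 0.178 FPKM in wild type (SD, n = 5). Slc6a5 was at most 5.22 FPKM in db/db and at least 5.64 FPKM in wild type. Groups were apart with db/db lower for 6.38% of tested genes. The log2 change of Slc6a5 was -0.41 (limma adjusted p = 0.106), and it fell when db/db 1 was left out (-0.28, limma adjusted p = 0.0254). It also fell GC-corrected and without db/db 1 (-0.26, limma adjusted p = 0.0441), but did not pass GC-corrected with 9 libraries (limma adjusted p = 0.221). Slc38a2, a carrier of small neutral amino acids, averaged 16.6 ± 2.10 FPKM in db/db (SD, n = 4) and 13.1 ± 1.05 FPKM in wild type (SD, n = 5), a log2 change of 0.31 (limma adjusted p = 0.112). Slc38a2 was at least 14.9 FPKM in db/db and at most 14.8 FPKM in wild type. Groups were apart with db/db higher for 5.20% of tested genes. Slc38a2 rose when db/db 1 was left out (0.36, limma adjusted p = 0.0315). It also rose GC-corrected and without db/db 1 (0.44, limma adjusted p = 0.0227), but did not pass GC-corrected with 9 libraries (limma adjusted p = 0.130). Without db/db 1 and without GC correction, 2 genes of the list rose and 1 fell, when 4.72% of all tested genes rose and 5.84% fell. The other riser was Shmt2, the mitochondrial enzyme that makes glycine from serine (0.25, limma adjusted p = 0.0454). Shmt2 did not pass once values were also GC-corrected (0.16, limma adjusted p = 0.131). The list median was 0.070 without db/db 1. Slc32a1, which loads glycine and GABA into vesicles, had a log2 change of 0.077 (limma adjusted p = 0.597).

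None of 20 genes of the inhibitory synapse scaffold and gephyrin partners passed with 9 libraries, with a median log2 change of -0.085. The median was -0.051 without db/db 1, when 2 fell, as did 5.84% of all tested genes. The sorting gene Vps35 fell when db/db 1 was left out (-0.23, limma adjusted p = 0.0497), and it did not pass once values were also GC-corrected (-0.037, limma adjusted p = 0.628). Vasp, an actin regulator that binds gephyrin, had 0.35 (limma adjusted p = 0.0961). Nlgn2, the adhesion protein gene of inhibitory synapses, averaged 31.5 ± 3.08 FPKM in db/db (SD, n = 4) and 28.8 ± 1.24 FPKM in wild type (SD, n = 5) and did not pass.

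Of the molybdenum cofactor genes, 5 of 9 were tested and none passed; the median was 0.055 with 9 libraries and turned to -0.033 without db/db 1, when none passed either. With 9 libraries Marc2 had 0.11 (limma adjusted p = 0.631) and Mocs3 0.078 (limma adjusted p = 0.733), and without db/db 1 they had -0.033 and -0.045. Of 10 genes of chloride cotransporters and their kinases, which set the chloride gradient that glycine receptors use, none passed with 9 libraries (median -0.032, and 0.0019 without db/db 1). Wnk1 had -0.18 (limma adjusted p = 0.410), and -0.046 without db/db 1, and Wnk3 -0.082 (limma adjusted p = 0.491). Slc12a5, the neuronal chloride exporter, had 0.073 (limma adjusted p = 0.768) and rose without db/db 1 (0.22, limma adjusted p = 0.0210), but did not pass once also GC-corrected (0.12, limma adjusted p = 0.178). Of 13 tested genes listed under splicing regulation and RNA editing none passed with 9 libraries (median -0.12). The median was -0.025 without db/db 1, when 1 gene rose, the splicing repressor gene Ptbp1 (0.27, limma adjusted p = 0.0317), which did not pass once also GC-corrected (0.21, limma adjusted p = 0.0746). Slc12a5 and Ptbp1 rose in a fit in which 4.72% of all tested genes did. Apobec2 had 0.83 (limma adjusted p = 0.0961) and the neuronal RNA-binding gene Elavl4 had -0.24 (limma adjusted p = 0.199). Without db/db 1 they had 0.68 (limma adjusted p = 0.0659) and -0.18 (limma adjusted p = 0.170). Nova1 and Nova2, which regulate splicing of glycine receptor transcripts in the mouse brain, had -0.0079 and 0.081 without passing.

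Among the related GABA-gated chloride channels 1 of 12 tested subunit genes fell, none rose and 11 did not pass, with a median log2 change of -0.20. Without db/db 1, 3 of the 12 fell, with a list median of -0.088, and 2 fell once values were also GC-corrected, with a median of -0.017. Over all tested genes 0.267% fell with 9 libraries, 5.84% without db/db 1 and 2.34% once also GC-corrected. Gephyrin also anchors many GABA-A receptors at central synapses. The GABA-C subunit genes Gabrr1 and Gabrr2 had log2 changes of 0.066 (limma adjusted p = 0.554) and -0.042 (limma adjusted p = 0.786).

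**Figure D4:**
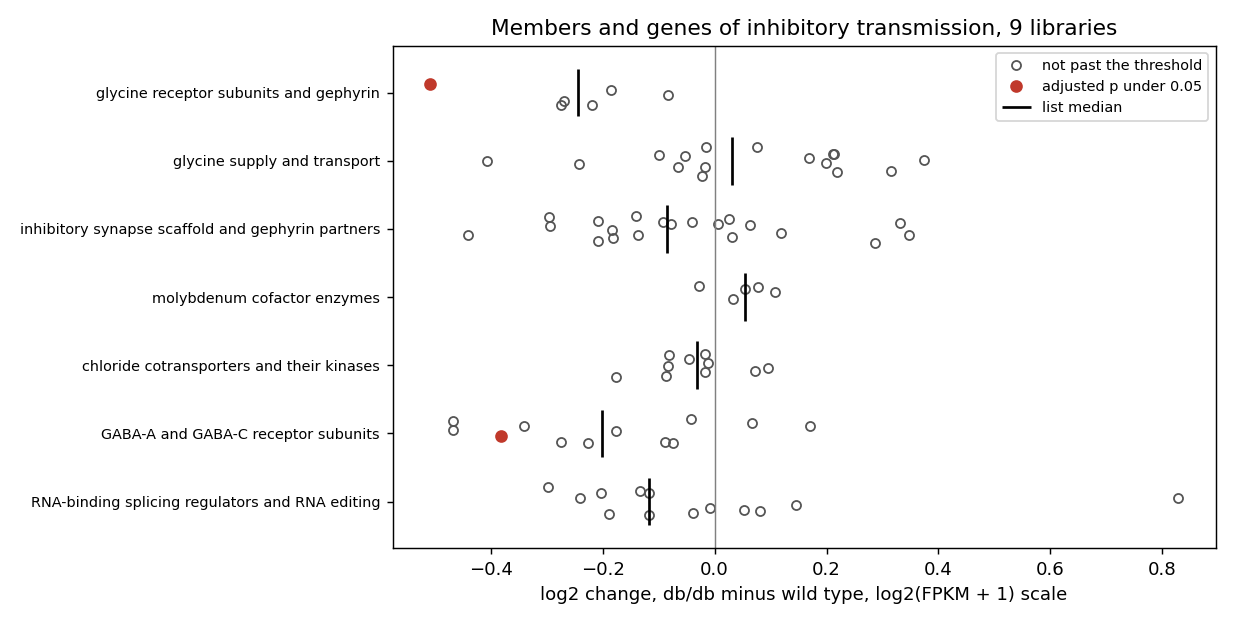
Log2 change (db/db minus wild type) with 9 libraries of the glycine receptor genes and gephyrin and of each tested gene of the 6 related lists; filled points passed an adjusted p of 0.05, open points did not, and lines mark list medians. Of the glycine receptor genes, Glra3 (-0.51) is the filled point, and 1 of the 12 GABA receptor subunit genes is filled.

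Chromosomal neighbours of the receptor genes were not called with 9 libraries. The nearest tested genes to Glra3 were Gpm6a, 880 kb before it (log2 change -0.16, limma adjusted p = 0.262), and Hpgd, 165 kb after it (0.028, limma adjusted p = 0.904). Those of Glra2 were Mospd2 (-0.21, limma adjusted p = 0.120) and Gemin8 (0.11, limma adjusted p = 0.533), the neighbour of Glra4 given here was Morf4l2 (0.059, limma adjusted p = 0.818), and those of Gphn Fut8 (-0.15) and Mpp5 (-0.17). The glutamate receptor gene Gria2 lies 40.8 kb from Glrb, with -0.40 (limma adjusted p = 0.117), and fell without db/db 1 (-0.27, limma adjusted p = 0.0377), while Ctso on the other side had 0.15. Fut8 fell in the same fit (-0.20, limma adjusted p = 0.0489), in which 5.84% of all tested genes fell. Glra1 lies between G3bp1 (0.028) and Gria1 (-0.32, limma adjusted p = 0.230).

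The genes whose log2(FPKM + 1) over the 9 libraries was most like that of each receptor gene are given with Pearson's r as a description, since the libraries share their group and depth. For Glra3 they were Wwp1, a ubiquitin ligase gene (r = 0.994), Negr1, a neuronal adhesion gene (0.989), and Sppl2a, an intramembrane protease gene (0.988). Wwp1 had a log2 change of -0.32, Negr1 of -0.39 and Sppl2a of -0.34, given with no test since they were picked for likeness to Glra3. For Glra1 they were the splicing regulator Srrm4 (0.984), the fibronectin gene Fn1 (0.983) and Pcdhgc3 (0.979), and for Glra4 Nedd4l (0.972), Zfp407 (0.968) and Mgat3 (0.967). For Glrb they were Akap11 (0.991), Nsd2 (0.982) and Pgm2l1 (0.976), for Glra2 Tom1l1 (0.957), Dr1 (0.939) and Dhx15 (0.936), and for Gphn Slc41a2 (0.905), Psd2 (0.882) and Wdfy1 (0.876). Without db/db 1 the r of Wwp1 with Glra3 was 0.992, and that of Srrm4 with Glra1 was 0.938.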

How the data were processed

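Libraries were made with the SMARTER mRNA-Seq kit from 1.3 micrograms of total RNA, per the labels' protocols. Gene-level FPKM values were deposited for 9 libraries. Per the submitters' processing notes, the build was mm10; the aligner, counter, annotation and strand setting were not given in the sources used here. Columns headed Control and DR were taken as WT and db/db of equal number, inferred from the names alone. Symbols, positions and transcript GC content came from GENCODE M21 (mm10), which held 34499 of 35397 identifiers. FPKM times exon length moved in whole steps (98.9% to 99.1% of low values within 0.1 read), which gave depths and read counts; reads need not be independent molecules.

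Tests covered the 14588 genes whose 9-library mean reached 1 FPKM, all 6 described genes among them. They used log2(FPKM + 1) with limma 3.58.1 in R 4.3.3 (eBayes with a mean-variance trend, no covariate), Benjamini-Hochberg adjustment over all tested genes and a threshold of 0.05. In simulated data of db/db against wild type with 200 of 14588 genes changed, 82% of changes of 0.5 and 98% of changes of 1 (log2) were recovered, and 11 unchanged genes were called. The simulated noise took the spread of the wild-type libraries alone, with no outlying library and no GC trend. These rates therefore need not hold for the measured db/db libraries. The receptor genes, lists and tests were chosen with earlier results of these data known. Each list gave its genes past the threshold, at most 4, and where there were none, its top 2 by p. Tested neighbours and the 3 genes most alike by Pearson's r were also named; further names were picked with their values in view. Some genes that this rule names are not reported here. Plots came from matplotlib 3.10.9 (Python 3.11.15). Alternatives were no filter, a filter at 5 FPKM, a pseudocount of 0.1, eBayes without trend, 3 scalings, the replicate number as a block, GC correction in 20 bins, and leaving out each library.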

Additional observations from a re-analysis of the deposited data

How the results depend on the processing

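Counts of calls rested on single libraries. Leaving out each library in turn gave 3 to 688 genes higher and 1 to 852 lower in db/db, 0 to 4 higher and 0 to 6 lower over the 6 lists, and 0 to 1 of the receptor genes lower. The call of Glra3 held without db/db 1 and was lost without each of the other 8 libraries. Genes higher and lower numbered 34 and 39 as reported, 7 and 2 with no filter, 17 and 13 with a filter at 5 FPKM (which drops all alpha genes), 21 and 15 after scaling to equal sums, and 5 and 1 after GC correction. GC-corrected and without db/db 1 they were 373 and 341, and the lists then held 1 higher and 3 lower gene calls. With the replicate number as a block they were 2 and 0. The labels do not state that equal numbers mark paired samples. Deviations of same-numbered libraries correlated at -0.180 to 0.134, and of the db/db libraries db/db 5 alone correlated best with its own number. Such correlations cannot settle whether samples were paired. Of the receptor genes 0 were called with a pseudocount of 0.1, no filter, the filter at 5 FPKM, each of the 3 scalings, the block and the GC correction with 9 libraries, and the lists held 0 lower genes with no filter, median-of-ratios scaling, equal sums, the block and the GC correction. The causes were not tested. The log2 change of Glra3 stayed below 0 in 18 alternatives, from -0.70 (pseudocount 0.1) to -0.27, as did those of Glra2, Glra4, Glrb and Gphn in theirs. Signs turned without db/db 1 for Glra1 (0.022; -0.49 to 0.022 over the left-out libraries), Marc2 (-0.033; -0.033 to 0.16) and Mocs3 (-0.045; -0.045 to 0.15). After GC correction they turned for Mocs3 (-0.070) and Wnk3 (0.014), and, GC-corrected and without db/db 1, for Marc2 (-0.045), Mocs3 (-0.15), Wnk3 (0.022) and Elavl4 (0.020). The difference in Glra3 share (db/db minus wild type) was -5.89 to -3.87 percentage points over the 10 alternatives run, and that in the Glrb to alpha ratio 0.0684 to 0.209. Both ranges were the same over the left-out libraries alone. The shares and ratios given above were taken from FPKM values without GC correction. At 59 to 166 reads per library, Glra4 is the gene that depth limits most.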
